A study of Mus musculus with 6 samples.

Results

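Transcripts used to tell microglia from other myeloid cells were followed in sorted mouse cells, namely Tmem119, Olfml3, Crybb1, Golm1, Sepp1, Lag3 and Aif1. They were taken by symbol, without a threshold on any value but with earlier results of these data known, and they make up 7 of the 35237 genes in the deposited table of FPKM values (fragments scaled by transcript length and by the mapped fragments of the library). The same 7 symbols were found among the 36536 genes of a second deposited quantification of the same libraries, made with ALEXA-Seq. Bone marrow monocytes (BMDM) were sorted as CD11b+ CD45high CD115+ Ly6G- cells from bone marrow, and brainstem microglia (BSM) as CD11b+ CD45low CD115low Ly6G- cells from brain, 3 libraries of each. All cells came from C57BL/6 mice aged 6 weeks, pooled from several animals per library. Replicate 1 of each cell type is labelled Male, and replicates 2 and 3 are labelled Female. Uty, Kdm5d, Ddx3y and Eif2s3y, all on the Y chromosome, were at 2.43 FPKM or more in the 2 libraries labelled Male and at 0.00540 or less in the other 4. With 1 male library per cell type, sex and library cannot be told apart.

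Microglia are the resident macrophages of the brain. They are seeded from embryonic progenitors and renew themselves in the tissue, whereas monocytes are made in the bone marrow and circulate. The genes followed here encode proteins of different kinds. Olfml3 encodes a secreted olfactomedin-domain glycoprotein of the extracellular matrix, and Sepp1 (now Selenop) encodes selenoprotein P, a secreted carrier of selenium. Tmem119 encodes a single-pass plasma membrane protein, Lag3 an immunoglobulin-superfamily receptor that binds MHC class II, and Golm1 a type II membrane protein of the Golgi. Aif1 encodes Iba1, a calcium-binding protein of the cytosol that binds actin and stains microglia and macrophages, and Crybb1 encodes a beta-crystallin, best known as a structural protein of the lens. Aif1 and Crybb1 are thus neither secreted nor membrane proteins by textbook knowledge, although they were followed together with the other 5.

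The proteins range from 147 residues for Aif1 to 521 for Lag3 in the longest coding transcript of GENCODE M21, with 280 for Tmem119, 406 for Olfml3, 250 for Crybb1, 393 for Golm1 and 380 for Sepp1. All 7 genes lie on autosomes, and only Tmem119 and Crybb1 share a chromosome. In the coordinates of the FPKM table (mm9) Olfml3 spans chr3:103537623-103541924, Sepp1 chr15:3220977-3230508, Tmem119 chr5:114243742-114250375, Lag3 chr6:124854379-124861723, Golm1 chr13:59736357-59777145, Aif1 chr17:35307937-35310223 and Crybb1 chr5:112684835-112698605.

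The sequence before the start site is shown for the 4 members with an FPKM above 10 in every BSM library and a RefSeq promoter entry. RefSeq (build GRCm38.p6) gave such an entry for 5 of the 7 members, and Tmem119 and Lag3 are named only. Each sequence runs 5′ to 3′ on the strand of the gene, within the 250 bases before the start site, and was ended where a GENCODE M21 exon begins. Capitals mark matches to the motifs described after the sequences. They cover chr3:103738002-103738251 on the minus strand for Olfml3, chr13:59675812-59676034 on the minus strand for Golm1, chr15:3270517-3270766 on the plus strand for Sepp1, and chr17:35176069-35176302 on the minus strand for Aif1. None of these stretches holds an annotated exon, and that of Sepp1 lies in an intron of a longer transcript of the same gene.
Olfml3: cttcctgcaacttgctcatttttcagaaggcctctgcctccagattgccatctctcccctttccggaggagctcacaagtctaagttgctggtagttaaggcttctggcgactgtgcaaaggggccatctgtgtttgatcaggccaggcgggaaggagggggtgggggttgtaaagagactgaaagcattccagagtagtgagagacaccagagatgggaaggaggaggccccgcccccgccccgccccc
Golm1: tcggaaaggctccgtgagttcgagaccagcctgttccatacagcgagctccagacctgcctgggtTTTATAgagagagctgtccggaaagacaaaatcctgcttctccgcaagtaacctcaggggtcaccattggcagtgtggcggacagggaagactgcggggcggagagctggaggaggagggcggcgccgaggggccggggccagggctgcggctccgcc
Sepp1: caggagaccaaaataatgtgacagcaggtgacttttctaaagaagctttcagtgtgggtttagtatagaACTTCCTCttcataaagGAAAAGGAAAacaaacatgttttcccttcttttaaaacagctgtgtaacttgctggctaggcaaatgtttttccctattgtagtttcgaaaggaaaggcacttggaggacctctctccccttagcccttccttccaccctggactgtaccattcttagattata
Aif1: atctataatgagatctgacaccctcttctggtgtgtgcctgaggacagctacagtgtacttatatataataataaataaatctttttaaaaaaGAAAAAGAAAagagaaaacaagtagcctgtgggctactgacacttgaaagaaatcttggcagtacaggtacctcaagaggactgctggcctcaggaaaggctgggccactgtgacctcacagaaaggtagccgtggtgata

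The motifs, 8 in all, were searched on both strands of the whole windows of 250 bases. RefSeq gives 3 start sites and so 3 overlapping windows for Sepp1, of which the first is printed, and positions refer to that one. The PU-box GAGGAAGT, named for the myeloid ETS factor PU.1, was found in Sepp1 as ACTTCCTC, 181 bases before the start site, and in 2.44% of 32851 RefSeq windows. The IRF motif, GAAA followed after any 2 bases by GAAA, was found in Sepp1, 164 bases before the start, and in Aif1, 157 bases before it, against 2.98% of all windows. The ETS core GGAAGT, which overlaps the PU-box in Sepp1, was also found in Golm1, 27 bases before the start and within an exon by GENCODE, so that it is not printed, and in 19.7% of windows. The TATA motif TATAAA was found in Golm1, 185 bases before the start, in Crybb1, 30 bases before it, and in the last of the 3 Sepp1 windows, 10 bases before its start, against 12.4% of windows. Olfml3 held none of the 8. The motifs TGANTCA (AP-1), TTGCNNAA (C/EBP), CTA followed after any 4 bases by TAG (MEF2) and GTCTAGAC (SMAD) were found in no member's window and in 6.75%, 9.56%, 3.20% and 0.167% of all windows. The windows also differed in base composition: GC content was 65.6% in Golm1, with 20 CpG sites, 58.0% in Crybb1, 57.6% in Olfml3, 43.6% in Aif1 and 40.8% in the first Sepp1 window (40.4% and 47.6% in its other windows), against a median of 52.4% over all windows. A match here is a run of letters, and no binding was measured.

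The libraries carried the markers of their labels. The summed FPKM of 5 microglia markers (P2ry12, Siglech, Cx3cr1, Fcrls and Gpr34) was 365 to 450.1 in BSM and 7.07 to 7.81 in BMDM, and that of 5 monocyte markers was 327 to 395 in BMDM and 0.0393 to 0.532 in BSM. Of the sort markers, Csf1r (CD115) was at 130 ± 28.1 FPKM (SD, n = 3) in BSM and 20.6 ± 1.24 in BMDM, although the gate took CD115low microglia, and Ptprc (CD45) was at 34.6 ± 12.5 and 104 ± 17.8. BSM replicate 1 stood apart in that 472 of the 6364 genes tested below were at 0 in it, against 51 to 115 in the other 5 libraries. The same library had the lowest RNA integrity and RNA yield in the study's own quality records, far below the other microglial pools. Without it all 6 members tested below were still called higher in BSM by limma, with log2 fold changes from 1.60 for Sepp1 to 5.80 for Olfml3 by FPKM. In BMDM the sum of 7 granulocyte markers ran from 46.0 to 329, highest in replicate 2, and it was at most 0.0714 in BSM. The study lists read totals of similar size for every library, but neither table keeps the counts behind a value, so no counting interval is given.

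Olfml3 was among the most abundant of the 7 in BSM, with the highest mean. Its FPKM was 69.1, 70.9 and 56.6 in BSM replicates 1 to 3 and 0.0208, 0.438 and 0.0394 in BMDM replicates 1 to 3. The groups lay far apart, with the lowest BSM library 129 times the highest BMDM library, and BMDM replicate 2 stood above the other monocyte libraries. The ratio of the group means was 394, and 2176 without BMDM replicate 2, the library with the highest granulocyte markers. The part of those cells in the value was not tested. Such a fold is set by monocyte values close to 0, and in bulk RNA fewer cells of a type and less RNA per cell cannot be told apart. By ALEXA-Seq Olfml3 was at 1570, 1530 and 1192 in BSM and at 0.358, 9.86 and 0.933 in BMDM, with the same library highest among monocytes.

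Differences between the cell types were tested with limma on log2(FPKM + 1), with Benjamini-Hochberg adjustment over the 6364 genes that reached an FPKM of 3 in at least 1 library, and called at an adjusted p under 0.05. Fold changes on this scale are BSM minus BMDM and understate the change of low genes. Of the 7 members 6 passed the minimum, Olfml3, Tmem119 and Lag3 through BSM libraries alone and Lag3 in 1 library only. A gene that passed through 1 cell type alone could hardly be called higher in the other, here and in the lists below. For Olfml3 the log2 fold change was 5.85 (SE 0.25, limma adjusted p = 3.03e-06), the rank 10 among all tested genes from the highest down. All 6 members that passed were called higher in BSM, where 9.22% of the tested genes were called in that direction and 45.3% in the other. By ALEXA-Seq the same 6 were called higher in BSM, against a background of 10.9% in that direction and 37.1% in the other. Every BSM library lay above every BMDM library for all 7 members in both quantifications, as it did for 11.6% of tested genes by FPKM and 14.6% by ALEXA-Seq. Over all tested genes the median log2 fold change was -0.81 by FPKM, so that the members rose against a background that was lower in BSM. The summed FPKM of all genes was also lower there, at 68288 to 75021 against 163199 to 194184 in BMDM, as was the summed ALEXA-Seq signal. Calls and ratios of means between the cell types depend on this scale, and scaling to the same sum set the FPKM median at 0.22. Quantile normalization set that median at -0.02 and raised the background called higher in BSM to 19.3%, and to 21.2% by ALEXA-Seq, and the 6 members were again called.

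**Figure D1:**
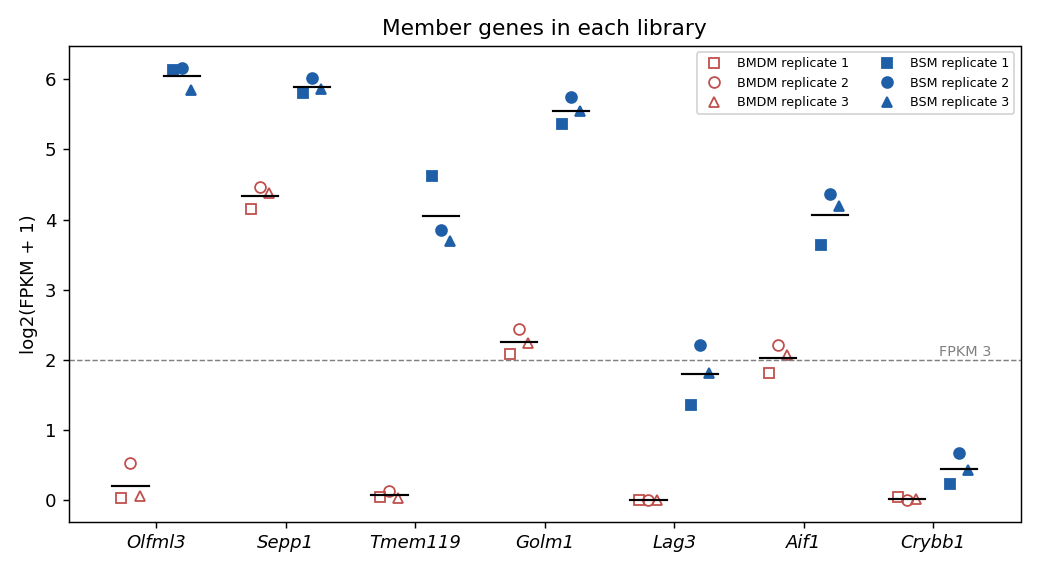
Level of the 7 members in each library, as log2(FPKM + 1) on the vertical axis, with open red symbols for BMDM, filled blue symbols for BSM, a symbol shape for each replicate number and a black line at each group mean. The dashed line is the FPKM minimum of 3. No member has overlapping groups, and Tmem119 is the member whose highest BSM library is replicate 1 while Aif1, Lag3, Golm1, Sepp1 and Crybb1 are lowest there.

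Selenoprotein P, the other secreted product, was already abundant in monocytes. Sepp1 was at 55.0, 63.6 and 57.0 FPKM in BSM and at 16.7, 21.1 and 19.8 in BMDM. The BSM libraries were all higher and lay close together, and the ratio of means was 3.04, the smallest among the members. The log2 fold change was 1.56 (SE 0.21, limma adjusted p = 0.000736), rank 351 of the tested genes. By ALEXA-Seq the values were 928, 936 and 805 in BSM and 212, 270 and 237 in BMDM, with a log2 fold change of 1.89 (SE 0.18, limma adjusted p = 0.000302). Across libraries of a cell type Sepp1 was by FPKM the steadiest member, with a coefficient of variation of 7.67% in BSM and 11.9% in BMDM.

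Tmem119 was nearly absent from monocytes by both quantifications. Its FPKM was 23.7, 13.4 and 11.9 in BSM and 0.0349, 0.0910 and 0.0232 in BMDM. BSM replicate 1 was the highest library and BMDM replicate 2 the highest monocyte library, still 131 times under the lowest microglial one. The log2 fold change was 3.98 (SE 0.30, limma adjusted p = 3.67e-05), rank 43. The ratio of means was 329, and 562 without BMDM replicate 2. By ALEXA-Seq the log2 fold change was 7.50 (SE 0.44, limma adjusted p = 6.08e-05), from 578, 337 and 276 in BSM and 0.903, 2.03 and 0.588 in BMDM.

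Golm1 was present in both cell types, at 40.1, 52.6 and 45.6 FPKM in BSM and 3.25, 4.41 and 3.73 in BMDM. The lowest BSM library was 9.09 times the highest BMDM library. The ratio of means was 12.2 and the log2 fold change 3.30 (SE 0.23, limma adjusted p = 2.80e-05), rank 79. By ALEXA-Seq it was 3.70 (SE 0.21, limma adjusted p = 5.72e-05), from 704, 903 and 774 in BSM and 52.3, 71.2 and 56.9 in BMDM. Of the longest Golm1 transcript in GENCODE M21 32.8% is shared with transcripts of the neighbouring Naa35. In the mm9 coordinates of the FPKM values the genes do not overlap and lie 219 bases apart. The strand setting of the counting is not given in the sources used here, so reads from the shared stretch cannot be assigned with certainty. Naa35 itself was at 2.85 to 5.99 FPKM in BMDM and 5.73 to 7.55 in BSM, under every Golm1 value in BSM. In BMDM it was about as high as Golm1 and higher in replicate 2 (5.99 against 4.41), so that the monocyte level of Golm1, and the ratio with it, is the less certain one. Sepp1 shares 21.0% of its longest transcript with Ccdc152 in the same way, and no value of Ccdc152 was used here. The other 5 members share no stretch of 100 bases or more at 95% identity with another gene's transcripts.

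Lag3 was the lowest of the membrane proteins. It was listed at 0 FPKM in all 3 BMDM libraries and at 1.56, 3.64 and 2.52 in BSM, and only BSM replicate 2 reached the minimum of 3. An FPKM of 0 can be a failed estimate in this table: Itgam, which encodes the CD11b used in the sort, was listed at 0 in BSM replicate 2 and at 2435 by ALEXA-Seq in the same library. By ALEXA-Seq Lag3 was at 0.124, 0.0695 and 0.161 in BMDM and at 50.9, 86.5 and 52.7 in BSM, so that the monocyte libraries were near 0 in this quantification too. The log2 fold change was 1.79 by FPKM (SE 0.33, limma adjusted p = 0.00311) and 5.80 by ALEXA-Seq (SE 0.48, limma adjusted p = 0.000170). The log2 fold change thus differed between the quantifications by more than for any other called member. Among the tested genes Lag3 was at rank 275 by FPKM and 78 by ALEXA-Seq. The ALEXA-Seq rank was 9 for Olfml3, 27 for Tmem119, 249 for Golm1, 431 for Aif1 and 533 for Sepp1. Markers of T and NK cells, which also express Lag3, summed to at most 0.0869 FPKM in BSM and 0.0869 to 1.06 in BMDM.

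Aif1 rose less than the membrane proteins Tmem119 and Golm1. It was at 11.4, 19.5 and 17.3 FPKM in BSM and at 2.50, 3.63 and 3.20 in BMDM, with the lowest value of each group in replicate 1. The ratio of means was 5.17 and the log2 fold change 2.03 (SE 0.27, limma adjusted p = 0.000673), rank 220. ALEXA-Seq gave 334, 564 and 489 in BSM and 66.8, 113 and 93.0 in BMDM, with a log2 fold change of 2.33 (SE 0.30, limma adjusted p = 0.000940).

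Crybb1 stayed below the FPKM minimum in every library and was not part of the test. It was at 0.172, 0.588 and 0.342 FPKM in BSM and at 0.0317, 0 and 0.0133 in BMDM. BSM was higher in every library, and the ratio of means, 24.5, ran from 16.3 without BMDM replicate 2 to 55.3 without BMDM replicate 1. By ALEXA-Seq Crybb1 was at 2.74, 11.9 and 10.3 in BSM and 1.14, 0 and 0.221 in BMDM. When genes of all levels were tested, its difference did not pass the threshold in either quantification, with a log2 fold change of 0.42 by FPKM (SE 0.11, limma adjusted p = 0.0543) and 2.57 by ALEXA-Seq (SE 0.70, limma adjusted p = 0.0586). An exact permutation test of 3 against 3 libraries, which cannot go below 0.1, gave p = 0.1 for all 7 members.

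**Figure D2:**
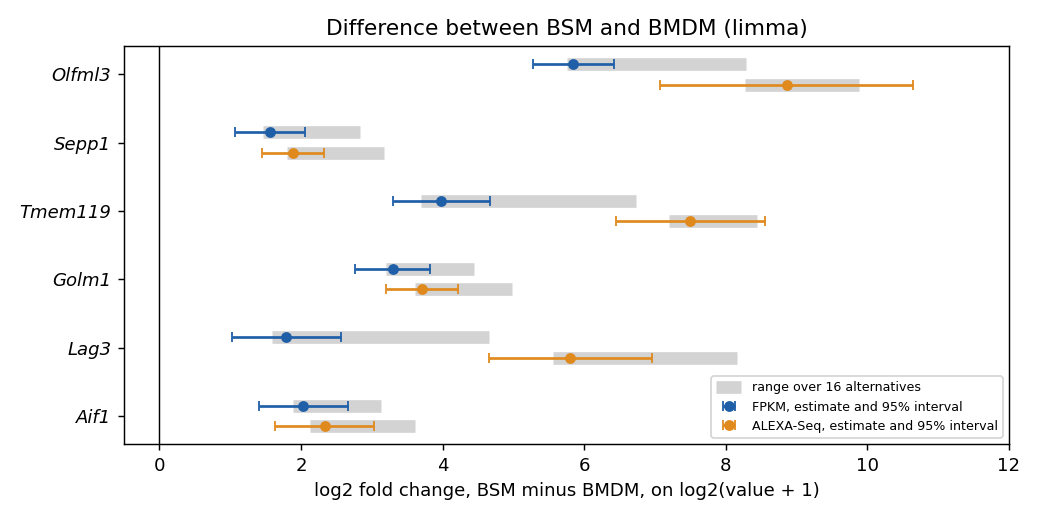
Log2 fold change, BSM minus BMDM, of the 6 members tested, by FPKM (blue) and by ALEXA-Seq (orange), on the horizontal axis. Points and bars are the limma estimate and its 95% interval, and grey bars give the range over 16 alternative settings. All ranges lie above 0, and the 2 quantifications differ most for Lag3, Tmem119 and Olfml3, the members near 0 in BMDM.

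FPKM values are scaled by transcript length, so the levels of different members may be set side by side. In BSM the order by mean FPKM was Olfml3 (65.5 ± 7.80, SD, n = 3), Sepp1 (58.5 ± 4.49), Golm1 (46.1 ± 6.29), Tmem119 (16.3 ± 6.44), Aif1 (16.1 ± 4.20), Lag3 (2.57 ± 1.04) and Crybb1 (0.367 ± 0.209). By FPKM the ranges of Olfml3 and Sepp1 overlapped, as did those of Tmem119 and Aif1, so that neither pair can be ordered. The other neighbours did not overlap by FPKM. The order was not the same by ALEXA-Seq, whose scaling is not given. There Olfml3 (mean 1431) lay above Sepp1 (890) without overlap, and the ranges of Sepp1 and Golm1 (794) overlapped. Aif1 (463) came before Tmem119 (397), with overlapping ranges. Among all 35237 genes ranked by mean FPKM in BSM, Olfml3 was at 121, Sepp1 at 145, Golm1 at 182, Tmem119 at 634, Aif1 at 647, Lag3 at 3748 and Crybb1 at 8809. In BMDM the order was different. Sepp1 was first (19.2 ± 2.29), Golm1 (3.80 ± 0.584) and Aif1 (3.11 ± 0.568) followed with overlapping ranges, and Olfml3, Tmem119, Crybb1 and Lag3 lay under 0.5 FPKM in every library. By ALEXA-Seq Aif1 (mean 90.8) came before Golm1 (60.1) in BMDM, again with overlapping ranges. Among all genes Olfml3 was at rank 11531 in BMDM against 121 in BSM, and Sepp1 at 985 against 145.

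Ratios to Aif1 were taken within each library, as the difference of log2(FPKM + 1). Because of the added 1 they still depend on scale where a gene is low. Relative to Aif1, Olfml3 was higher in BSM by 3.81, Tmem119 by 1.95 and Golm1 by 1.26, with no overlap between the groups and an exact permutation p of 0.1 for each, the smallest that 3 against 3 allows. With a pseudocount of 0.1 the difference was 5.98 for Olfml3 and 4.43 for Tmem119, and by ALEXA-Seq it was 6.53 and 5.17. Sepp1 went the other way, from 2.30 ± 0.0395 (SD, n = 3) in BMDM to 1.83 ± 0.299 in BSM, again without overlap and at an exact permutation p of 0.1. The difference for Sepp1 was -0.47, and -0.71 with a pseudocount of 0.1. By ALEXA-Seq it was -0.44, with overlapping groups and an exact permutation p of 0.3. For Lag3 the difference was -0.24 with overlapping groups (exact permutation p = 0.2), and it turned to 2.35 with a pseudocount of 0.1 and to 3.47 by ALEXA-Seq. For Crybb1 it was -1.61 by FPKM and 0.23 by ALEXA-Seq. Both genes lie near or below the 1 FPKM that was added before the logarithm. BSM replicate 1 had the highest ratio of Tmem119, Olfml3, Golm1 and Sepp1 to Aif1 among microglia. These ratios share Aif1, which was itself lowest in that library (11.4 FPKM), as were Golm1 (40.1) and Sepp1 (55.0). For Tmem119 the ratio to Aif1 was 1.00 in replicate 1, against -0.51 in both replicates 2 and 3. Replicate 1 is also the male library, the one with the most genes at 0 and the one with the lowest recorded RNA integrity, and the part of each in this ratio was not tested. Without it the difference for Tmem119 was 1.45, still without overlap.

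**Figure D3:**
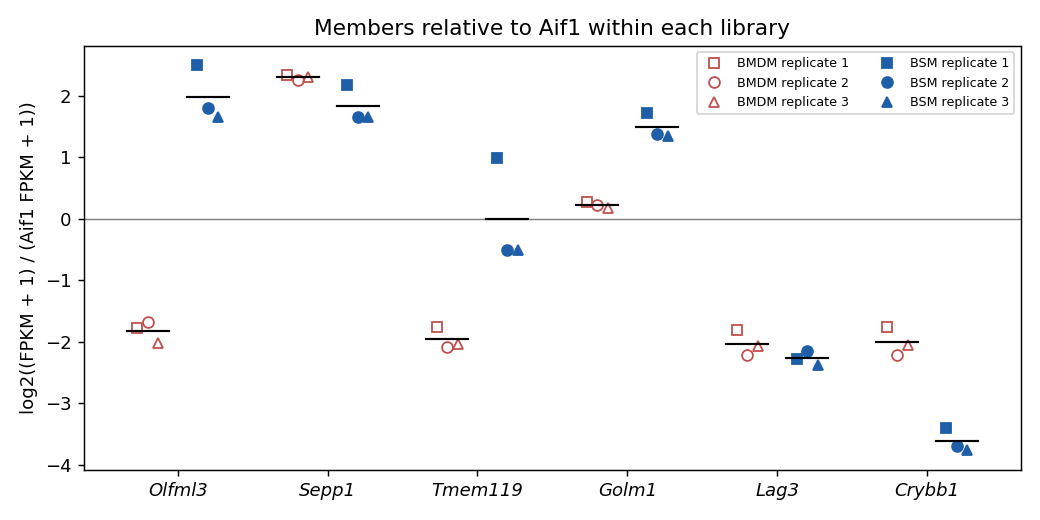
Log2 of the ratio of each member to Aif1 within a library, with 1 added to both FPKM values, for BMDM (open red) and BSM (filled blue), by replicate, with black lines at the group means. Olfml3, Tmem119 and Golm1 are higher in BSM relative to Aif1, Sepp1 is lower, and the Lag3 groups overlap.

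Relatives and partners of each member were then read from the same fit. Of 17 other microglia genes, all were called higher in BSM, a direction in which 9.22% of all tested genes were called. Of 13 other monocyte genes all were called higher in BMDM, as were 45.3% of all tested genes. The median log2 fold changes were 3.59 and -4.84, beside -0.81 over all tested genes. Sparc, another secreted matrix protein, had the largest difference of that microglia list at 7.73, and P2ry12, a purinergic receptor of microglial processes, stood at 7.22. These lists were drawn up as the known genes of each cell type, and they hold the microglia and monocyte markers summed above. Most of their genes passed the minimum through that cell type alone, so these counts say little beyond how the lists were made.

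Among the listed olfactomedin, crystallin and paralog genes only Olfm1 and Aim1 passed the minimum, so the others were not tested. Both passed it through BMDM libraries alone, so that a call higher in BSM was hardly open to them. Of all tested genes 9.22% were called higher in BSM and 45.3% higher in BMDM. Of 8 other olfactomedin-domain genes 7 stayed below the minimum, and Olfm1 was called higher in BMDM, at 7.82 ± 0.576 FPKM (SD, n = 3) against 0.00632 ± 0.00696. Of 8 other beta- and gamma-crystallin genes 7 stayed below the minimum. Among them was Cryba4, at 0.0978 ± 0.0906 FPKM in BMDM and 0.148 ± 0.0566 in BSM, and Aim1, a crystallin-domain protein outside the lens, was called higher in BMDM (log2 fold change -2.92). Casc4, the paralog of Golm1, was below the minimum too, at 0.0462 ± 0.0138 FPKM in BMDM and 1.95 ± 1.27 in BSM, with every BSM library above every BMDM library. Aif1l, the paralog of Aif1, was at 0.00617 FPKM or less in every library. Cd4, the gene related to Lag3, was at 0.0983 or less.

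Sepp1 was the only selenoprotein gene called higher in BSM among those tested here, a direction in which 9.22% of all tested genes were called. With 5 others tested, none called in that direction is near this share. Of 18 other selenoprotein genes listed 14 were found by symbol (not Sels, Selt, Seli and Selo), and 5 passed the minimum. Of these 4 were called higher in BMDM, as were 45.3% of all tested genes. The largest changes were in Sepx1, a methionine sulfoxide reductase (log2 fold change -5.71), and Gpx1, a glutathione peroxidase (-3.54). Of the 4, Sepx1 and Txnrd1 passed the minimum through BMDM libraries alone. Selk was not called, and the median over the 5 was -1.38. After quantile normalization only Sepx1 and Gpx1 were still called. Of the genes that make or take up selenoproteins, Sephs1 was called higher in BMDM (-1.39) and Scly was not called. The other 6 were below the minimum, including the selenoprotein P receptor Lrp8, at 1.25 ± 0.186 FPKM in BMDM and 0.0207 ± 0.0204 in BSM.

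Of 8 genes around Lag3, its ligands among them, 5 passed the minimum and 3 were called higher in BMDM, a direction in which 45.3% of all tested genes were called. The MHC class II genes H2-Aa and H2-Ab1 had log2 fold changes of -2.82 and -2.55, and Lgals3, which encodes galectin-3, of -4.18. All 3 passed the minimum through BMDM libraries alone, so a call higher in BSM was hardly open to them. The ligand genes H2-Eb1, at a mean of 1.44 FPKM in BMDM and 0.0272 in BSM, and Fgl1, at 0.0356 or less, were below the minimum. Adam10 and Adam17, the proteases that shed Lag3 from the cell surface, had log2 fold changes of 0.60 and 0.53 and were not called (limma adjusted p = 0.0582 and 0.0834), although both were called higher in BSM after quantile normalization. Of 7 other inhibitory receptors, Havcr2 (TIM-3) was called higher in BSM with a log2 fold change of 4.84, from 3.08 ± 0.828 to 116 ± 25.8 FPKM, and 4632428N05Rik, the gene of VISTA, with 1.08. Btla, which passed through BMDM libraries alone, was called higher in BMDM (-3.70), and Pdcd1, Ctla4, Tigit and Cd200r1 were below the minimum.

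Of 8 genes listed around Iba1, a paralog and actin partners, 6 passed the minimum, and none of these was called in the direction of Aif1. Lcp1 (L-plastin), Coro1a, Rac1, Rac2, Actb and Cfl1 (cofilin) were called higher in BMDM, as were 45.3% of all tested genes, with log2 fold changes from -1.38 for Lcp1 and Rac1 to -3.25 for Cfl1, a median of -1.99, and 4 of the 6 were still called after quantile normalization. Coro1a and Rac2 passed the minimum through BMDM libraries alone. Pls3, a plastin below the minimum, was at 0.287 ± 0.119 FPKM in BMDM and 0.751 ± 0.625 in BSM. Of 7 other Golgi proteins tested beside Golm1, Golga2 and Golph3 were called higher in BMDM (-0.97 and -1.40) and 5 were not called, with a median of -0.46. After quantile normalization 1 of the 7 was called in each direction.

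**Figure D4:**
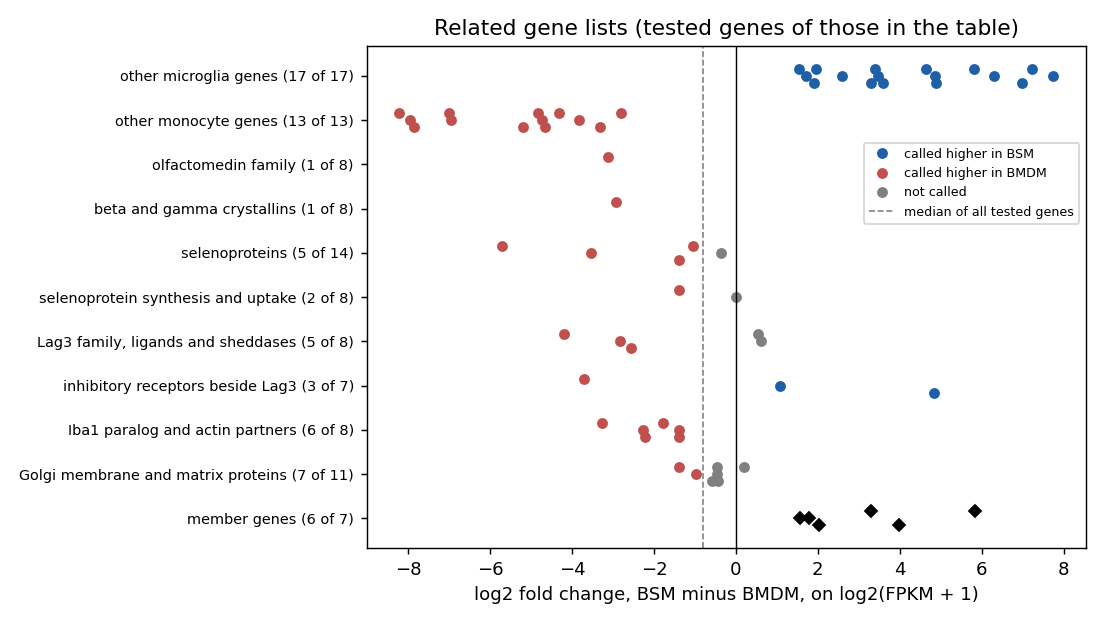
Log2 fold change, BSM minus BMDM, on the log2(FPKM + 1) scale, of the tested genes in each related list, with the number tested and the number in the table, and of the 6 tested members (black diamonds). Blue points were called higher in BSM, red points higher in BMDM and grey points were not called, and the dashed line is the median of all tested genes, -0.81. Members and the other microglia genes lie to the right of the dashed line, and the partners of Iba1 and 4 of 5 selenoproteins lie to the left of it.

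Genes next to a member on the chromosome were called in either direction. Of the 13 nearest tested neighbours 2 were called higher in BSM, 5 higher in BMDM and 6 neither way, where 9.22% and 45.3% of all tested genes were called higher in BSM and in BMDM. After quantile normalization 4 of the 13 were called higher in BSM. Selplg, the P-selectin ligand gene, lies 18170 bases from Tmem119 and was called higher in BSM (log2 fold change 1.66), while Sart3 on the other side was not called. Hipk1, a protein kinase gene 1814 bases from Olfml3, was called higher in BMDM with a log2 fold change of -2.45. Both neighbours of Aif1, Lst1 at 11817 bases (-1.98) and Csnk2b (-1.73), were called higher in BMDM. The closest neighbours of Golm1 (Naa35, 219 bases away), Crybb1 (Tpst2, 7106 bases) and Lag3 (Ptms, 1976 bases) were not called, although Naa35 and Tpst2 were called higher in BSM after quantile normalization. Zcchc6, on the other side of Golm1, was called higher in BMDM (-0.75) but not after that scaling, Cdca3, beyond Lag3, was higher in BMDM (-2.57), and Trim33 and Pitpnb were not called. For Sepp1 the only tested neighbour, AW549877, was 703926 bases away and was called higher in BSM (0.77). The unnamed gene ENSMUSG00000085855, which overlaps the end of Olfml3, was at 0.0747 FPKM or less.

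The genes most like each member were found by the Euclidean distance between their log2(FPKM + 1) values over the 6 libraries. Mlph, a melanosome transport protein, and Rtn4rl1, a Nogo receptor homologue, came closest to Lag3, at distances of 0.16 and 0.18. Slc29a3, a lysosomal nucleoside transporter, was nearest to Sepp1 (0.47), with 46.8 to 58.4 FPKM in BSM and 14.1 to 21.0 in BMDM, and Cd164 followed (0.80). Rasgrp3, a Ras activator, and Mertk, a phagocytic receptor kinase, were nearest to Olfml3, at 0.53 and 0.63. Nrip1 and 9030625A04Rik were nearest to Aif1 (0.54 and 0.59), Gal3st4 and the flippase gene Atp8a2 to Tmem119 (0.56 and 0.75), and Ctsl, a lysosomal protease, and Lair1, an inhibitory collagen receptor, to Golm1 (0.75 and 0.86). For Crybb1 the nearest tested genes, Lnx1 and ENSMUSG00000081016, were less close, at distances up to 1.51, since the member itself lay below the minimum that the others had passed.

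Other cells that could carry these transcripts were looked for through marker lists. The sum of 6 perivascular macrophage markers was 0.546 to 4.29 FPKM in BSM and 1.91 to 2.92 in BMDM, and that of 6 astrocyte markers was 5.31 to 9.52 and 0.0180 to 0.102. Within the astrocyte list Slc1a3 gave nearly the whole sum, and Gfap was at 0 in all 6 libraries. The endothelial sum was 1.31 to 2.92 in BSM and 2.32 to 3.87 in BMDM, with 7 markers. The oligodendrocyte sum was 0.927 to 1.21 in BSM and 5.58 to 8.62 in BMDM, with Olig1 and Olig2 at 0 throughout. In BMDM Mbp alone, at 5.56 to 8.58, gave nearly all of it. Neuronal markers summed to at most 0.249 FPKM, B cell markers to at most 0.457 in BSM and 2.89 in BMDM, and erythroid markers to at most 0.171 in BSM and 38.8 in BMDM. The part of such cells in the members' values was not tested.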

How the data were processed

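Sorted BMDM and BSM (3 libraries each) were amplified from low RNA input with the Ovation kit and sequenced in pairs. Per the labels and the submitters' processing notes the reads passed through CASAVA 1.7.0, TopHat 1.3.1 and Bowtie 0.12.7, and the authors deposited FPKM per gene from Cufflinks 1.0.3 (mm9). They also deposited a gene-level ALEXA-Seq expression signal, whose scaling and aligner are not given in the sources used here. Low-input amplification can add noise to low values, and neither table keeps depth. Per-gene starts are counted from 0 in the FPKM table (13 of 13 mitochondrial genes) and are printed counted from 1.

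From these values log2(FPKM + 1) was tested with limma 3.58.1 (R 4.3.3; empirical Bayes with a mean-variance trend), over genes with FPKM of at least 3 in 1 library, with Benjamini-Hochberg adjustment at 0.05. For ALEXA-Seq log2(signal + 1) was tested over the same number of genes, taken by highest value. The fit was also run on simulated normal values with shifts added to some genes. They lack the widespread differences between the cell types seen here, so that run bears on no result given. Each fit was repeated with 0.1 added in place of 1, with an FPKM minimum of 1, without any minimum, after scaling by quantiles, the upper quartile or the sum, without the trend, with library weights, with sex or replicate number in the model, and with each library left out. Shared transcript stretches were searched with blastn 2.17.0. Members, gene lists and motifs were chosen with earlier results of these data known. Named are the 7 members, at most a few genes of each list (largest called changes, closest paralogs), nearest tested neighbours and the 2 nearest profiles, plus genes added after their values were seen (Scly, Sephs1, Selk, the Y-linked genes, and list genes named beyond that number). The labels call the samples biological replicates of pooled cells, so the spread is between pools. One listed microglia gene is not reported here and was left out of its lists.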

Additional observations from a re-analysis of the deposited data

How the results depend on the processing

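Under all 16 alternatives in both quantifications the 6 tested members stayed higher in BSM and past the limma threshold. The number of genes called moved with scaling. By FPKM 587 genes were called higher in BSM, and 1051 after upper quartile scaling, 1227 after quantile normalization, 1582 after scaling to the same sum and 881 with library weights, while those higher in BMDM went from 2883 to 1380, 1378 and 973 under the same 3 scalings. By ALEXA-Seq 691 genes were called higher in BSM, against 1161, 1349, 1926 and 1344 under these settings, and 2359 higher in BMDM, against 1201, 1439, 845 and 4018. Leaving out 1 library at a time gave 1452 (without BMDM replicate 3) to 3082 calls (without BSM replicate 1) higher in BMDM by ALEXA-Seq. The scalings moved the median of all tested genes by construction, to between -0.14 and 0.22 by FPKM, and raised every member's fold change, that of Sepp1 from 1.56 to 2.83 at the most. The cause of the other moves was not tested. The ratio to Aif1 reversed for Crybb1, to 0.23 by ALEXA-Seq, and for Lag3, to 2.35 with a pseudocount of 0.1 and 3.47 by ALEXA-Seq. The deviations of same-numbered libraries from their group means had correlations of -0.02, -0.0084 and 0.13, against -0.11 to 0.07 for the other pairs. With means of 3 libraries these correlations cannot show whether same-numbered pools came from the same animals. With a replicate block 3471 genes were called by FPKM in place of 3470 and 2885 by ALEXA-Seq in place of 3050, and all 6 members were still called, at adjusted p of at most 0.00829 and 0.00312. With 3 libraries per group and no counts, small differences of low genes such as Crybb1 could not be resolved.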
